A study of Mus musculus with 16 samples.

Results

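The type I interferon response genes described here are 43 mouse genes that cells switch on when an interferon engages its receptor. They were named by symbol from their known place in that response, with earlier results of these data known. All 43 were found among the 24974 genes that the DP and CD8 count tables have in common. RNA was sequenced from thymocytes of mice that carry floxed *Tox4* alleles, in which loxP sites flank exons 4 to 6, without Cre in the control group (Tox4 f/f) and with it in the conditional knockout, or cKO, group (Tox4 f/f;Lck-Cre). The series asks how loss of TOX4, a nuclear HMG-box protein, bears on gene expression in developing T cells. CD4+CD8+ double-positive (DP) cells gave 3 samples of each genotype, and CD8 single-positive cells gave 5 of each. Floxed mice were made on a C57BL/6 background, all mice were 6 to 8 weeks old, and controls were littermates matched for gender. Cre was driven by the proximal *Lck* promoter, which acts from the DN3 stage in T-lineage cells, so other cells of the thymus keep the gene. Both cell types were sorted from the thymus by flow cytometry, the CD8 cells as TCRβ+CD8+ thymocytes. The total count per sample was 16524506, 18484568 and 17221704 fragments in DP control and 21154634, 14583336 and 25981683 in DP cKO. It was 9420085, 10882293, 9899833, 10949265 and 13530783 in CD8 control, and 11687062, 11828492, 8905915, 8894000 and 8514135 in CD8 cKO.

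Type I interferons bind the IFNAR1 and IFNAR2 receptor, whose kinases JAK1 and TYK2 activate a complex that holds IRF9 and STAT2. The complex binds the interferon-stimulated response element (ISRE) in promoters and switches on RNA sensors, antiviral effectors and regulators of the response. In the thymus, interferon is made without infection, mainly by cells of the medulla, and single-positive thymocytes raise interferon-response genes as they mature there.

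Promoters are shown because the response element lies there. Sequences from RefSeq (build GRCm38.p6) span 250 bases before to 50 after the start of transcription, and 32 of the 43 members could be matched. *Oas2*, *Zbp1*, *Iigp1*, *Mx1*, *Dhx58*, *Parp14*, *Rtp4*, *Usp18*, *Mx2*, *Parp9* and *Ifi27* were not in the table. The ISRE core GAAANNGAAA, searched on both strands, was found in 18 of 32 member promoters (56.2%) and in 1131 of all 32851 promoters (3.44%). The gamma-activated site TTCNNNGAA, searched likewise, was found in 9 of 32 member promoters (28.1%) and in 2726 of all promoters (8.3%). A match describes letters in this window and not a site in use. The sequences below run 5′ to 3′ on the strand of the gene, with ISRE cores of either strand in capitals. *Ifit3*, *Ifit1*, *Oas3* and *Isg15* show members called higher in CD8 cells, and *Igtp*, *Stat2* and *Bst2* show members that were not.
Ifit3 (chr19:34583279-34583578, plus strand): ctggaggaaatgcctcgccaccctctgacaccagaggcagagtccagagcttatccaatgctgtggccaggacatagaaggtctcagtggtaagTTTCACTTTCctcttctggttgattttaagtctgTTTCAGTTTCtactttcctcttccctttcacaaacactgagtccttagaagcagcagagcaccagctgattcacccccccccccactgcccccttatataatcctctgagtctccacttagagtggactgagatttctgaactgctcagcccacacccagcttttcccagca
Ifit1 (chr19:34640639-34640938, plus strand): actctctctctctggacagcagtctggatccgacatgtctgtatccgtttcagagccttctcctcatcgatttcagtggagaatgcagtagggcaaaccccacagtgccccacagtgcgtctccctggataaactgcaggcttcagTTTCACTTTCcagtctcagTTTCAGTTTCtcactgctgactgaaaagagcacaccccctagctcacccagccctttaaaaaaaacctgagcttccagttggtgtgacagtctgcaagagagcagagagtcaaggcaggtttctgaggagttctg
Oas3 (chr5:120777610-120777909, minus strand): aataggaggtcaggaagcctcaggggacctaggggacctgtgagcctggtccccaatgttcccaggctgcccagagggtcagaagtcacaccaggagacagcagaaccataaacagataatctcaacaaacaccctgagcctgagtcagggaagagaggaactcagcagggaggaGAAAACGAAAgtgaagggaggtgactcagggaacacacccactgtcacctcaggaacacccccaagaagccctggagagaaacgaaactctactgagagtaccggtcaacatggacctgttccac
Isg15 (chr4:156200769-156201068, minus strand): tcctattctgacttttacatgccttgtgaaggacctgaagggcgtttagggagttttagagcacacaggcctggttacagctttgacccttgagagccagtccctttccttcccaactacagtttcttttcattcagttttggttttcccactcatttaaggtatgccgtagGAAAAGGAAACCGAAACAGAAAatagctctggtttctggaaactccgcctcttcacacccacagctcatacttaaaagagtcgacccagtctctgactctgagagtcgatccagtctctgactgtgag
Igtp (chr11:58199306-58199605, plus strand): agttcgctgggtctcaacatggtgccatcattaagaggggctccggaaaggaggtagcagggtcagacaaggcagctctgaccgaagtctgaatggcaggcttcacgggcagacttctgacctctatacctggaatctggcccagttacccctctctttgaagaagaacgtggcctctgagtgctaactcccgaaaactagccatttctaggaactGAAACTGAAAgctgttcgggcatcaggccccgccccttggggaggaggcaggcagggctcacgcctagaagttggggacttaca
Stat2 (chr10:128270248-128270547, plus strand): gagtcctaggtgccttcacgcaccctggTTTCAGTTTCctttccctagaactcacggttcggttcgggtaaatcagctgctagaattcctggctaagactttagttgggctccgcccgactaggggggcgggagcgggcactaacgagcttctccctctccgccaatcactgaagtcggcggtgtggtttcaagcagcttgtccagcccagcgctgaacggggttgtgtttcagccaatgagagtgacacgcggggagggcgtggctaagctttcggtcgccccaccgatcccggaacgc
Bst2 (chr8:71537423-71537722, minus strand): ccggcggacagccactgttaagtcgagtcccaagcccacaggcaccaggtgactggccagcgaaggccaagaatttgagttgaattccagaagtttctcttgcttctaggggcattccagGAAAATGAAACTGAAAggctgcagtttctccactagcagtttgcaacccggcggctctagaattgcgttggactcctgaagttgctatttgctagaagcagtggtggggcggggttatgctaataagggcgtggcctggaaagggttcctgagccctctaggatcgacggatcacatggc

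In *Ifit3* the ISRE cores begin 156 and 122 bases before the start, and in *Ifit1* they begin 104 and 85 bases before it. The *Oas3* promoter holds 1 core, 75 bases before the start. In *Isg15*, 3 overlapping cores begin 78, 72 and 66 bases before the start. Members that were not called higher in CD8 cells can hold cores too: *Igtp* holds 1 at 34 bases, *Stat2* 1 at 222 bases, and *Bst2* 2 overlapping ones from 130 bases before the start.

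**Figure D1:**
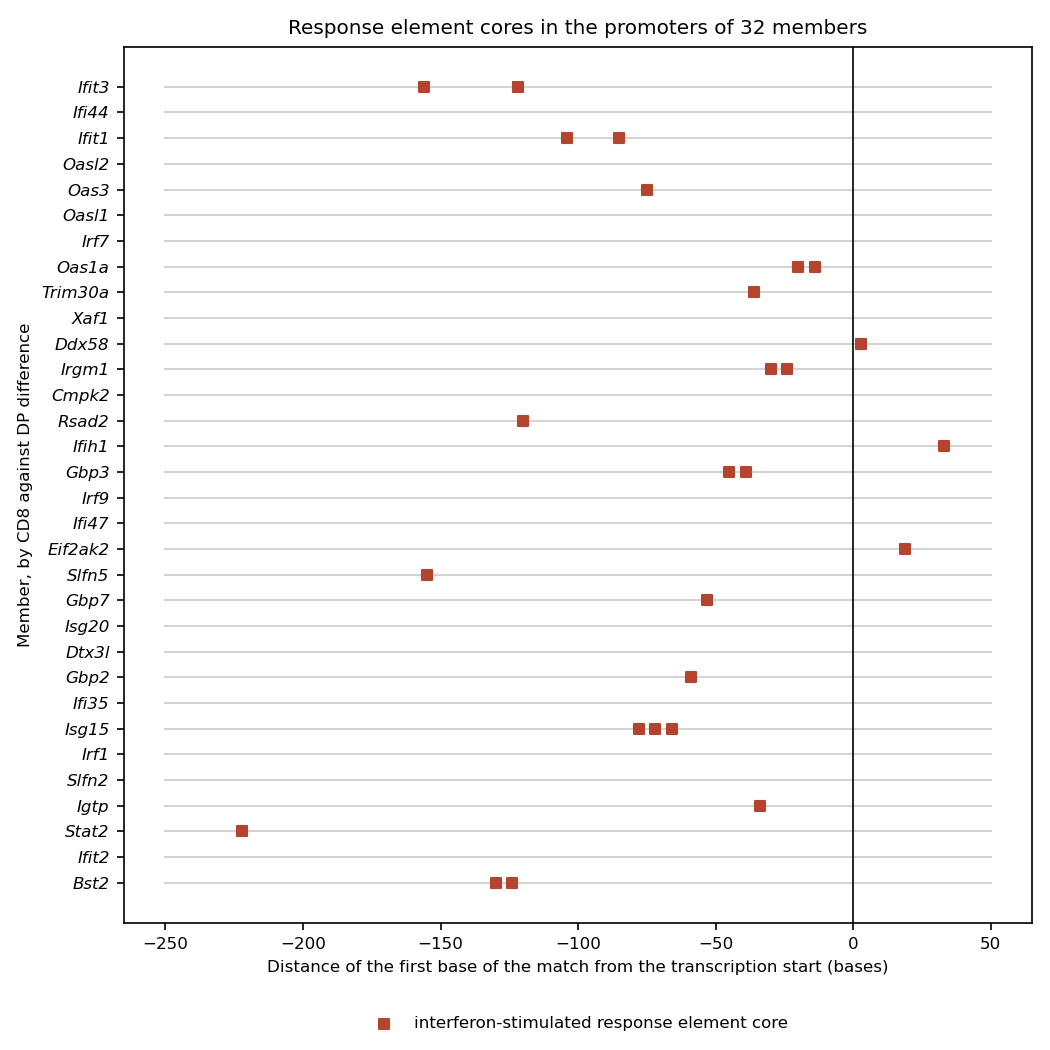
Positions of ISRE cores in the 32 matched member promoters, in bases from the start of transcription. Each line is a gene and each mark a match on either strand; 18 members hold an ISRE core.

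*Tox4* itself was used as a check of the labels. Levels are given throughout as TPM, the share of a sample's transcripts computed from counts divided by exonic length. *Tox4* had 104, 107 and 113 TPM in DP control and 86.6, 89.1 and 77.8 TPM in DP cKO samples. Every DP cKO sample was below every DP control sample, with a log2 fold change of -0.32 (SE 0.11, edgeR quasi-likelihood adjusted p = 0.381). In CD8 cells *Tox4* had 139, 141, 148, 142 and 129 TPM in control and 122, 137, 131, 162 and 133 TPM in cKO samples. These groups overlapped, with a log2 fold change of -0.06 (SE 0.10, edgeR adjusted p = 0.979). The deleted exons hold 735 of the 4458 exonic bases of the gene, so losing only them would give a log2 change of -0.26. Counts per gene therefore check the genotype weakly, and in CD8 cells they do not separate the labels, so that "cKO" names the label of a sample here.

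The cell types matched their labels by markers. The 5 general thymocyte markers, with *Cd3e* highest by mean, summed to between 6819 and 11343 TPM over all samples. The 6 CD8 single-positive markers, with *Cd8b1* highest, summed to between 3764 and 5652 TPM in DP and between 4343 and 5946 TPM in CD8 samples, since DP cells also express both CD8 chains. The 8 DP markers summed to between 9194 and 12959 TPM in DP samples and between 2994 and 3645 TPM in CD8 samples. This list also holds *Cd8a* and *Cd8b1*, which CD8 cells express, and *Cd8b1* was its highest gene by mean. The sum in CD8 samples is therefore no measure of DP cells among them. *Rag1*, a recombinase gene of DP cells, had 4270.5, 3084 and 3467 TPM in DP control and 43.4, 60.1, 10.8, 5.57 and 7.36 TPM in CD8 control samples. The 7 maturation markers summed to between 308 and 474 TPM in DP samples and between 3031 and 6098 TPM in CD8 samples. Among CD8 samples, those numbered 1 and 2 of both genotypes stood apart. *Cd4* had 62.1, 70.9, 6.31, 3.64 and 10.7 TPM in CD8 control and 69.7, 81.6, 6.78, 5.79 and 8.33 TPM in CD8 cKO samples, highest in these 4 libraries, which also had the lowest sums of maturation markers in their groups. CD8 control 1 had a count for 17741 genes, against 13708 to 15054 in the other CD8 samples. Without CD8 control 1 and 2, 39 members were called higher in CD8 than in DP cells, 37 of them the same as with all samples.

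Other cell types were looked for by their markers. Sums over the 14 macrophage and dendritic cell markers were 197, 411 and 174 TPM in DP control and 108, 132 and 159 TPM in DP cKO samples, with *Cd74* as the gene of highest mean, and 92.1 to 219.9 TPM in CD8 samples. The 6 B cell markers found summed to between 20.9 and 68.3 TPM over all samples, with *Cd79b* highest by mean. The 4 plasmacytoid dendritic cell markers summed to between 1.64 and 27.2 TPM, with *Cox6a2* highest by mean. Thymic epithelium, with *Epcam* highest of 7 markers, summed to between 1.75 and 12.2 TPM, and its defining factor *Foxn1* was at 0 in every DP sample, with 22 fragments in CD8 control 1 and at most 3 in any other CD8 sample. The 6 erythroid markers summed to at most 0.642 TPM, and the globin genes were at 0 in every sample. For NK, NKT and gamma-delta T cells, 7 of 10 markers were found, with sums of 6.08 to 18.8 TPM in DP and 457 to 803 TPM in CD8 samples, with *Nkg7* highest, which CD8 cells also express.

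Together the 43 members took 1443, 1432 and 1255 TPM in DP control and 1491, 1191 and 1168 TPM in DP cKO samples. In CD8 cells they took 4127, 3869, 4508, 4668 and 4732 TPM in control and 3978, 4008, 4873, 4342 and 4656 TPM in cKO samples. Every CD8 sample was above every DP sample, while the genotypes overlapped within each cell type. In DP cells the median coefficient of variation between replicates was 23.7% for members and 13.9% for all genes in control, and 24.4% and 15.1% in cKO. In CD8 cells the medians were 17.4% and 16.1% in control, and 12.7% and 16.7% in cKO. All genes were not matched to the members for level. Some members had few fragments in DP control, such as *Mx1* with 13, 24 and 4 and *Ifit3* with 21, 26 and 13. A higher median in DP cells is therefore not shown to be a trait of the members. DP cKO 1 was the highest of its group in 37 of 43 members, against 35.9% of all genes, DP cKO 2 was the lowest of its group in 29, against 38.2%, and DP control 3 in 31, against 33.5%. In bulk RNA, fewer cells of a type and less RNA per cell cannot be told apart.

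**Figure D2:**
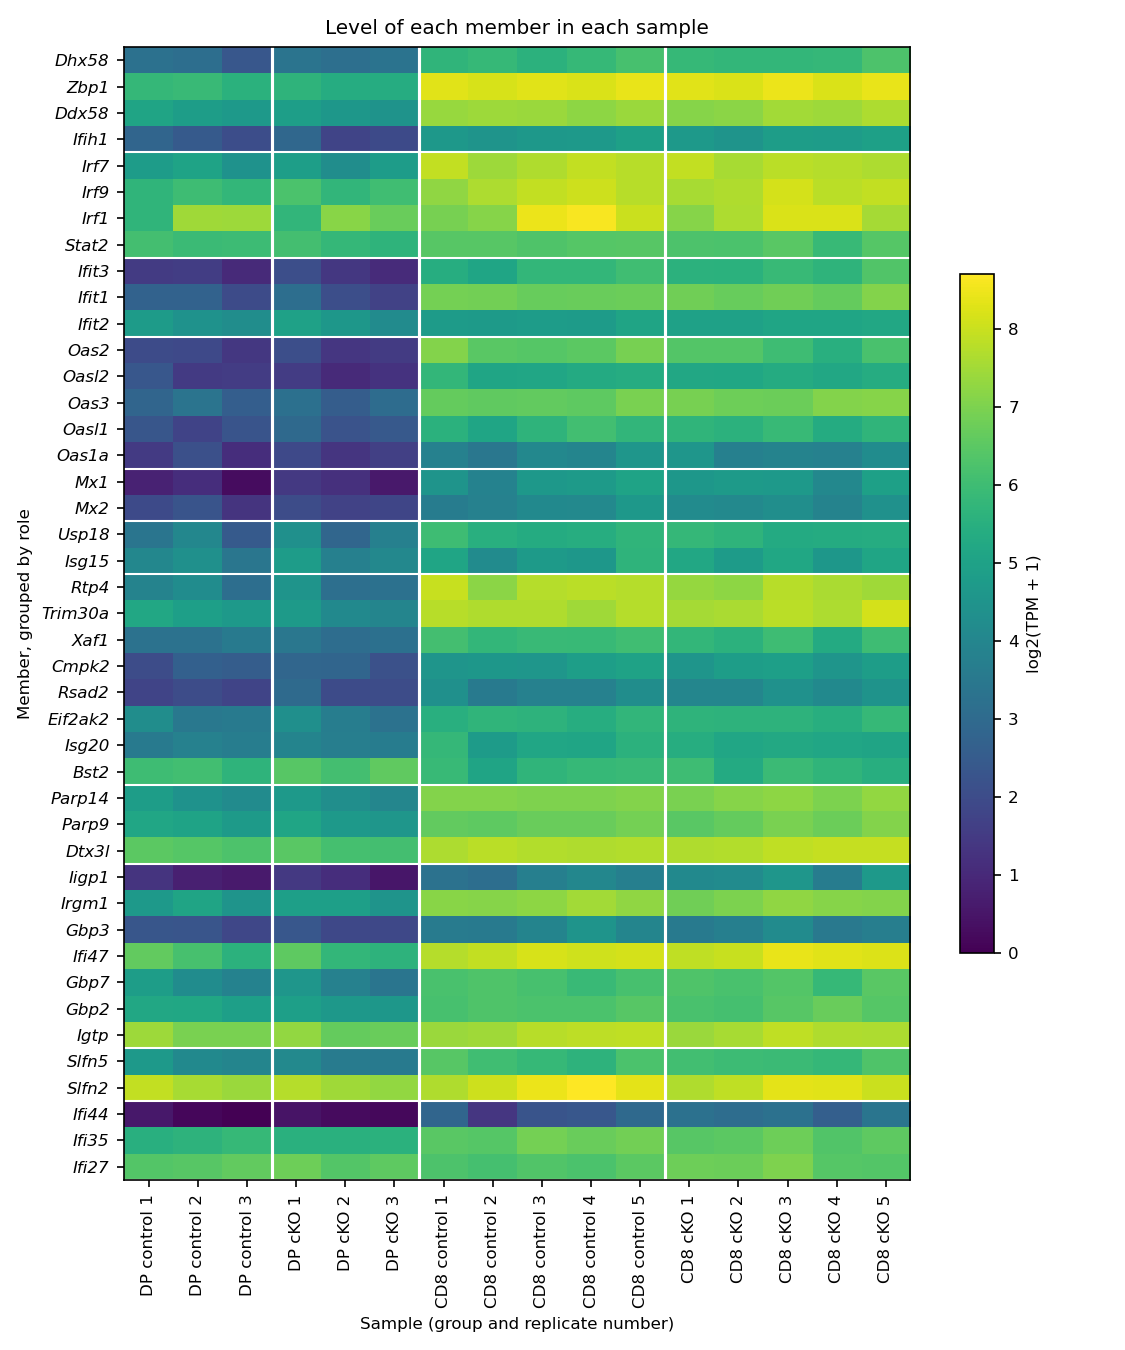
TPM of the 43 members in each of the 16 samples, on a log scale, with members ordered by role and samples by group. The 10 CD8 samples are higher than the 6 DP samples for most members, and the genotypes of a cell type overlap for most members.

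The first comparison sets CD8 control against DP control cells, which asks how the response genes differ between these stages of T cell development. Of 43 members, 37 were called higher in CD8 cells (edgeR adjusted p under 0.05, a fold of at least 1.5 and a mean of at least 1 TPM), where 22.0% of the 11758 genes tested were. None was called lower, where 22.3% of all genes were, and DESeq2 called 0 lower; 39 members had an unadjusted p under 0.05, all with higher levels in CD8 cells, as did 7536 of all genes in either direction. The median log2 fold change was 2.42 over members and -0.01 over all genes. In 36 members every CD8 value was above every DP value, which held for 29.7% of all genes. The cell types come in separate tables, so stage and library set cannot be told apart. The members were listed with earlier results of these data known, so their share of calls is a description. All fold changes in the next paragraphs are CD8 control against DP control on the log2 scale, with 3 DP and 5 CD8 samples.

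Sensors of foreign or misplaced nucleic acid were higher in CD8 cells in 4 of 4 cases, with edgeR adjusted p from 1.09e-08 to 1.35e-06. *Zbp1*, a sensor of Z-form nucleic acid and the most abundant of them, had 55.1, 58.1 and 46.3 TPM in DP control and 321, 287, 315, 298 and 344 TPM in CD8 control samples, a change of 2.49 (SE 0.11). *Ddx58*, which encodes the RNA sensor RIG-I, had 32.8, 27.8 and 24.4 TPM in DP and 162, 173, 167, 149 and 166 TPM in CD8 samples, a change of 2.46 (SE 0.09). *Ifih1*, which encodes the long double-stranded RNA sensor MDA5, had 6.23, 4.57 and 3.19 TPM in DP and 24.3, 21.7, 23.9, 24.9 and 29.7 TPM in CD8 samples, a change of 2.36 (SE 0.18). None of these groups overlapped. *Dhx58*, for LGP2, a regulator of the other two, had 8.52, 7.89 and 4.10 TPM in DP and 50.4, 55.8, 47.8, 56.2 and 71.2 TPM in CD8 samples, again without overlap, a change of 2.97 (SE 0.22).

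Among the 4 transcription factors, 2 were called higher. *Irf7*, the factor that amplifies interferon production, had 27.4, 31.8 and 20.6 TPM in DP and 240.0, 174, 203, 242 and 220.2 TPM in CD8 samples, a change of 2.95 (SE 0.16) with edgeR adjusted p = 1.24e-07. *Irf9*, the DNA-binding subunit of the complex that interferon activates, had 51.3, 62.8 and 53.4 TPM in DP and 151, 199, 237, 262 and 218 TPM in CD8 samples, a change of 1.86 (SE 0.16). In both genes every CD8 sample was above every DP sample. *Stat2*, its partner, had 68.5, 60.6 and 61.2 TPM in DP and 85.3, 85.2, 78.8, 84.7 and 85.3 TPM in CD8 samples. These did not overlap either, but the change of 0.33 (SE 0.09) was under the fold required (edgeR adjusted p = 0.00641). *Irf1*, which is also induced by interferon gamma and by stress, had 50.6, 176 and 173 TPM in DP control, 52.1, 143 and 105 TPM in DP cKO, 119.7, 139.7, 349, 391 and 257 TPM in CD8 control and 137, 200.2, 293, 297 and 186 TPM in CD8 cKO samples. The DP samples numbered 1 were lowest in both genotypes, and stage groups overlapped (0.82 (SE 0.45), edgeR adjusted p = 0.143).

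The IFIT genes, whose products bind foreign RNA and block its translation, sit side by side on chromosome 19, and 2 of 3 were called higher. *Ifit1* had 5.64, 5.73 and 2.998 TPM in DP control, 7.78, 3.28 and 2.28 TPM in DP cKO, 119, 114, 101, 104 and 107 TPM in CD8 control and 113, 103, 113, 99.1 and 136 TPM in CD8 cKO samples. *Ifit3* had 1.86, 1.97 and 1.07 TPM in DP and 41.8, 33.8, 53.2, 53.9 and 64.5 TPM in CD8 control samples. Neither gene overlapped between stages, with changes of 4.43 (SE 0.18) for *Ifit1* and 4.84 (SE 0.29) for *Ifit3* (edgeR adjusted p = 1.64e-08 and 1.14e-07). *Ifit2*, the neighbour of *Ifit3* at 6995 bases, had 26.5, 20.8 and 18.3 TPM in DP and 26.2, 25.6, 27.0, 26.7 and 32.9 TPM in CD8 samples. These groups overlapped, with a change of 0.28 (SE 0.14) (edgeR adjusted p = 0.105).

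All 5 OAS genes were called higher, with edgeR adjusted p from 2.17e-08 to 7.85e-05. OAS enzymes sense double-stranded RNA and make the 2′-5′ oligoadenylates that activate RNase L. With all libraries kept, *Oas2* showed the largest change of all members. It had 2.96, 2.79 and 1.67 TPM in DP control and 135, 88.1, 84.1, 89.9 and 121 TPM in CD8 control samples. That is 39.9-fold, a change of 5.32 (SE 0.23), and no values overlapped. *Oas3*, 3250 bases from *Oas2* on chromosome 5, had 6.24, 9.19 and 5.06 TPM in DP control, 8.30, 4.89 and 7.41 TPM in DP cKO and 98.7, 95.1, 96.1, 92.3 and 122 TPM in CD8 control samples, a change of 3.80 (SE 0.18). *Oas1a* had 1.78, 3.36 and 1.22 TPM in DP and 13.2, 9.93, 15.6, 14.5 and 22.9 TPM in CD8 samples, a change of 2.75 (SE 0.37). *Oasl1* and *Oasl2*, OAS-like genes 10995 bases apart, did not overlap between stages either. *Oasl1* had 4.03, 2.40 and 3.82 TPM in DP and 46.7, 33.4, 49.7, 65.5 and 51.6 TPM in CD8 samples, a change of 3.79 (SE 0.25). *Oasl2* had 4.18, 1.78 and 1.94 TPM in DP and 53.1, 33.9, 34.5, 39.0 and 41.4 TPM in CD8 samples, a change of 3.89 (SE 0.26).

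Both Mx genes, for dynamin-like GTPases that trap viral components, were called higher. Many laboratory strains carry defective alleles of *Mx1*, so its RNA need not mean protein. *Mx1* had 0.774, 1.22 and 0.222 TPM in DP control, 1.75, 1.29 and 0.523 TPM in DP cKO, 21.9, 13.4, 24.1, 25.8 and 32.4 TPM in CD8 control and 23.5, 25.8, 25.4, 15.6 and 30.0 TPM in CD8 cKO samples. *Mx2* had 2.92, 3.80 and 1.495 TPM in DP and 11.7, 13.1, 16.4, 16.2 and 24.2 TPM in CD8 control samples. Every CD8 sample was above every DP sample in both, with changes of 4.89 (SE 0.44) and 2.50 (SE 0.32) (edgeR adjusted p = 2.24e-06 and 5.79e-05); that of *Mx1* was 5.52 without DP control 2. Of the ISG15 system, *Usp18*, which removes ISG15 from proteins and restrains the receptor, had 9.41, 15.5 and 4.56 TPM in DP control, 19.8, 6.29 and 12.9 TPM in DP cKO, 63.2, 43.9, 40.1, 42.4 and 50.4 TPM in CD8 control and 54.9, 49.2, 38.8, 39.7 and 41.2 TPM in CD8 cKO samples, a stage change of 2.21 (SE 0.31). *Isg15*, the ubiquitin-like modifier, had 15.5, 19.6 and 9.81 TPM in DP and 34.0, 17.5, 25.8, 23.2 and 50.01 TPM in CD8 control samples. These overlapped, since CD8 control 2 was below DP control 2, and the change of 0.94 (SE 0.35) only just passed (edgeR adjusted p = 0.0394). The *Isg15* call was lost without DP control 1 (0.93), without DP control 3 (0.73), without CD8 control 1 (0.90) and without CD8 control 5 (0.68), with edgeR adjusted p of 0.0900, 0.144, 0.0603 and 0.108.

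Of 8 other antiviral effectors, 7 were called higher, with edgeR adjusted p from 1.93e-08 to 1.87e-04. *Trim30a*, a TRIM protein that curbs inflammatory signalling, had 36.6, 29.0 and 24.8 TPM in DP control and 219, 205, 205, 176 and 211 TPM in CD8 control samples, a change of 2.69 (SE 0.11). *Rtp4*, a zinc finger protein, had 13.7, 17.9 and 7.86 TPM in DP and 253, 146, 212, 225 and 213 TPM in CD8 samples, a change of 3.92 (SE 0.24). *Xaf1*, a pro-apoptotic partner of XIAP, had 8.73, 8.78 and 10.7 TPM in DP and 68.3, 53.0, 59.1, 57.2 and 64.3 TPM in CD8 samples, a change of 2.61 (SE 0.14). None of these groups overlapped, nor did those of the next 4 genes. *Rsad2*, for viperin, which makes a chain-terminating nucleotide, had 2.48, 3.11 and 2.44 TPM in DP and 19.7, 11.1, 13.2, 13.1 and 18.5 TPM in CD8 samples, a change of 2.42 (SE 0.24). *Cmpk2*, a nucleotide kinase gene 12763 bases from *Rsad2*, had 3.11, 5.31 and 4.96 TPM in DP and 22.1, 23.1, 22.6, 28.4 and 31.6 TPM in CD8 samples, a change of 2.43 (SE 0.22). *Eif2ak2*, for the translation-blocking kinase PKR, had 18.1, 10.3 and 11.0 TPM in DP and 44.5, 51.4, 48.4, 41.9 and 51.9 TPM in CD8 samples, a change of 1.79 (SE 0.16). *Isg20*, a gene for an RNA exonuclease, had 10.9, 13.2 and 12.0 TPM in DP and 55.0, 26.2, 34.8, 33.5 and 47.7 TPM in CD8 samples, a change of 1.63 (SE 0.25). *Bst2*, for tetherin, which holds budding virus at the membrane, had 63.9, 65.9 and 50.2 TPM in DP and 57.3, 33.1, 50.3, 56.0 and 58.2 TPM in CD8 samples. Its groups overlapped, with a change of -0.30 (SE 0.21) (edgeR adjusted p = 0.224).

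*Dtx3l*, *Parp9* and *Parp14* lie together on chromosome 16, and all 3 were called higher. *Dtx3l*, a ubiquitin ligase that works with PARP9, had 89.5, 83.2 and 76.5 TPM in DP control, 88.0, 69.8 and 68.5 TPM in DP cKO, 196, 221, 208, 203 and 209.8 TPM in CD8 control and 202, 209.8, 233, 243 and 247 TPM in CD8 cKO samples. *Parp9* had 34.6, 31.9 and 25.7 TPM in DP and 98.1, 91.8, 103, 105 and 117 TPM in CD8 control samples. *Parp14*, an ADP-ribosyltransferase, had 27.8, 20.7 and 17.5 TPM in DP and 134, 136, 131, 130.2 and 134 TPM in CD8 control samples. No stage groups overlapped, with changes of 1.25 (SE 0.08), 1.68 (SE 0.12) and 2.53 (SE 0.12) and edgeR adjusted p of 2.55e-07, 5.55e-07 and 2.72e-08.

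Guanylate binding proteins and immunity-related GTPases, which attack the vacuoles of pathogens and also answer to interferon gamma, were called higher in 6 of 7 cases. *Ifi47* had 96.7, 70.3 and 47.4 TPM in DP control, 93.0, 53.4 and 48.0 TPM in DP cKO, 211, 242, 289.6, 271 and 280.3 TPM in CD8 control and 232, 251, 341, 318 and 300.1 TPM in CD8 cKO samples, a stage change of 1.80 (SE 0.18). *Iigp1* had 1.48, 0.703 and 0.562 TPM in DP and 8.70, 7.91, 12.4, 15.2 and 12.4 TPM in CD8 control samples, a change of 3.58 (SE 0.35). *Irgm1*, a regulator of the other immunity-related GTPases, had 24.7, 32.6 and 21.7 TPM in DP and 141, 137, 149.9, 180.0 and 151 TPM in CD8 samples, a change of 2.45 (SE 0.16). The stage groups of these genes did not overlap, and the same held for *Gbp2*, *Gbp3* and *Gbp7*, which are neighbours on chromosome 3. *Gbp2* had 36.7, 35.5 and 29.3 TPM in DP and 71.4, 78.1, 74.3, 74.0 and 86.8 TPM in CD8 control samples, a change of 1.11 (SE 0.11). *Gbp3* had 4.03, 3.87 and 2.64 TPM in DP and 11.3, 10.8, 14.4, 21.7 and 14.5 TPM in CD8 samples, a change of 1.98 (SE 0.26). *Gbp7* had 27.8, 17.8 and 13.7 TPM in DP and 72.2, 78.3, 71.1, 59.1 and 70.5 TPM in CD8 samples, a change of 1.77 (SE 0.17). Counts within this family, as in the OAS, IFIT and Schlafen families, depend on how reads of similar sequence were assigned. *Igtp* had 172, 124 and 123 TPM in DP control, 157, 99.7 and 103 TPM in DP cKO, 168, 177, 215, 229.6 and 235 TPM in CD8 control and 167, 188, 232, 203 and 196 TPM in CD8 cKO samples. Its stage groups overlapped, and its change of 0.49 (SE 0.14) was under the fold required, but it was called without DP control 1 (0.62).

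Schlafens regulate T cell quiescence and growth, and both were called. *Slfn2*, the most abundant member by mean over all 16 samples but below *Zbp1* by mean in CD8 cells of both genotypes, had 236, 189 and 168 TPM in DP control, 210.0, 175 and 157 TPM in DP cKO, 201, 262, 347, 417 and 324 TPM in CD8 control and 205, 232, 329, 316 and 254 TPM in CD8 cKO samples. Its stage groups overlapped, and its change of 0.59 (SE 0.20) sat at the fold required (edgeR adjusted p = 0.0255). The call was lost without DP control 2 (0.58) or 3 (0.50), and without CD8 control 3 (0.56), 4 (0.45) or 5 (0.57). *Slfn5* had 24.8, 16.4 and 14.4 TPM in DP and 85.8, 65.0, 56.6, 48.0 and 75.3 TPM in CD8 control samples without overlap, a change of 1.77 (SE 0.20). Of 3 other interferon-induced genes, *Ifi44* had 0.488, 0.104 and 0 TPM in DP and 6.12, 1.59, 3.75, 4.16 and 6.86 TPM in CD8 control samples. The *Ifi44* DP values rest on 8, 2 and 0 fragments, and its change of 4.45 (SE 0.83) was 6.05 without DP control 1. *Ifi35* had 43.9, 48.6 and 55.4 TPM in DP and 88.4, 85.0, 117, 104 and 115 TPM in CD8 control samples without overlap, a change of 0.97 (SE 0.15). *Ifi27*, a mitochondrial protein gene, had 82.0, 85.4 and 96.5 TPM in DP control, 109.8, 81.4 and 93.4 TPM in DP cKO, 77.2, 70.2, 79.7, 73.8 and 90.1 TPM in CD8 control and 108, 107, 129, 83.2 and 82.8 TPM in CD8 cKO samples. Its stage groups overlapped (-0.24 (SE 0.13), edgeR adjusted p = 0.122).

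An ISRE core was found in 15 of the 27 called members with a promoter in the table and in 3 of the 5 uncalled ones. A gamma-activated site was found in 5 of the 27 called members and in 4 of the 5 uncalled ones. The median stage change was 2.17 for the 18 members with an ISRE core and 1.83 for the 14 without.

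The rest of the pathway was looked at from receptors to targets, again as CD8 control against DP control. Of 21 interferon genes only *Ifng*, for interferon gamma, had counts enough to test, and it was not called; *Ifnb1* was at 0 in every sample. Of 5 receptor genes tested, 3 were called higher and 1 lower, where 22.0% of all genes were called higher and 22.3% lower. *Ifnar2* changed by 1.02 (SE 0.11), *Ifngr2* by 1.81 (SE 0.19) and *Il10rb* by 1.66 (SE 0.15), and *Ifngr1*, for the ligand-binding chain of the interferon gamma receptor, by -1.43 (SE 0.14). Among kinases and STATs called higher, *Jak1* changed by 1.17 (SE 0.10), *Tyk2* by 0.94 (SE 0.10) and *Stat3* by 0.62 (SE 0.09).

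Of 13 genes of upstream sensing tested, 6 were called higher and 1 lower, against 22.0% and 22.3% of all genes. In either direction 44.3% of all genes were called, so calls in a short list say little about the list. The endosomal RNA sensor *Tlr7* changed by 3.63 (SE 0.16), *Tmem173*, for the DNA-sensing adaptor STING, by 2.40 (SE 0.17), and *Ikbke* by 1.56 (SE 0.09). *Cgas* (1.25), *Mavs* (1.002) and *Trim25* (0.93) were the others called higher. The factor gene *Irf3* was called lower, with a change of -0.61 (SE 0.12), and its call was lost without DP control 3 (-0.52), CD8 control 3 (-0.56) or CD8 control 4 (-0.57). Of 9 negative regulators tested, 5 were called higher, against the same 22.0% of all genes: *Adar* (1.36), *Ptpn2* (1.12), *Irf2* (0.99), *Socs3* (0.65) and *Pias1* (0.63). *Socs1*, the JAK inhibitor, was called lower, with a change of -0.76 (SE 0.28), a call lost without DP control 2 (-0.53), CD8 control 1 (-0.58) or CD8 control 2 (-0.67). The *Socs3* call was lost without DP control 2 (0.54) or CD8 control 4 (0.57).

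Among 50 other interferon-stimulated genes tested outside the members, 38 were called higher and 1 lower, against 22.0% and 22.3% of all genes. Their median change was 1.85. This list too was drawn up with earlier results of these data known. The largest was *Ifi213*, of the PYHIN family of DNA-binding proteins, at 6.83 (SE 0.20). It had 3.24, 2.41 and 1.33 TPM in DP and 309.5, 279.7, 260.0, 269.9 and 259 TPM in CD8 control samples, with no overlap. The most abundant in CD8 cells was *Shisa5*, with 289, 304 and 249 TPM in DP and 4019.8, 3094, 3105, 3049 and 2956 TPM in CD8 control samples. Its groups did not overlap, and its change was 3.46 (SE 0.13). The gene called lower was *Gbp8*, a guanylate binding protein gene, at -1.67 (SE 0.12). The others called higher were *Samhd1*, *Ifit3b*, *Ifit1bl1*, *Ifi203*, *Ifi209*, *Mndal*, *Lgals3bp*, *Ly6c2*, *Sp100*, *Sp110*, *Pml*, *Parp12*, *Herc6*, *Phf11b*, *Uba7*, *Trim12a*, *Trim12c*, *Trim14*, *Trim21*, *Trim34a*, *Gbp5*, *Gbp6*, *Gbp9*, *Irgm2*, *Tgtp1*, *Tgtp2*, *Oas1b*, *Oas1c*, *Slfn1*, *Slfn8*, *Slfn9*, *Apol9a*, *Apol9b*, *Tor3a*, *Cxcl10* and *Ccl5*. Single libraries decided 5 of these calls. Those of *Ccl5* without DP control 1 (1.22) or 3 (1.28), *Cxcl10* without CD8 control 4 (1.69) and *Parp12* without DP control 3 (0.74) were lost. So were those of *Slfn9* without DP control 2 (0.62) or 3 (0.59) or CD8 control 2 (0.67) or 5 (0.72), and *Trim12a* without DP control 2 (0.55) or CD8 control 1 (0.57). Single libraries also moved *Apol9b* (5.95; without DP control 1, 6.55, and without DP control 2, 5.37), *Ly6c2* (3.08; without DP control 2, 3.90) and *Irgm2* (2.13; without DP control 1, 2.87).

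**Figure D3:**
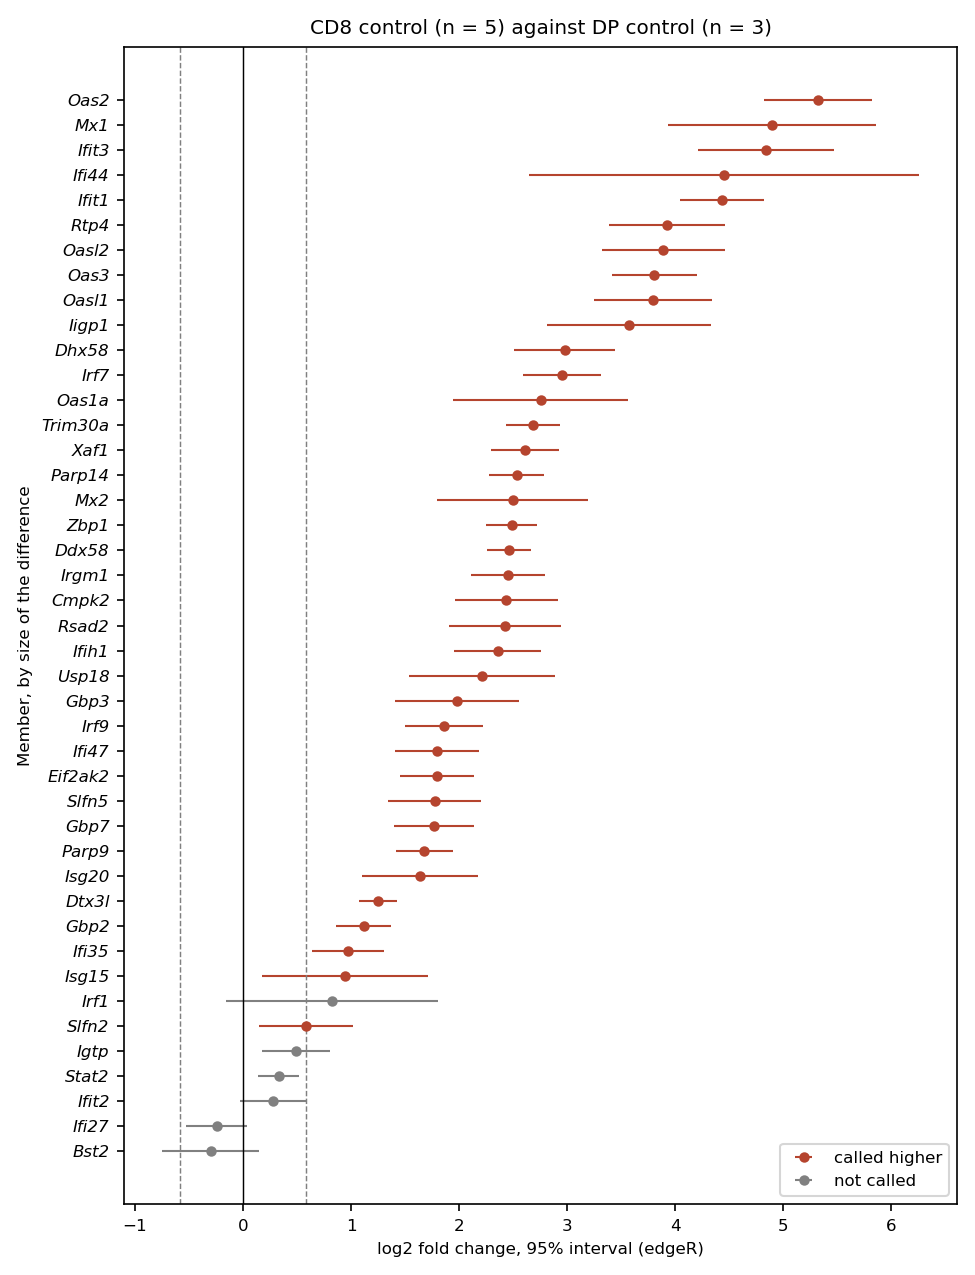
Log2 fold change of each member, CD8 control against DP control, with its 95% interval, ordered by size. Of the 43 members, 37 were called higher, and *Bst2* and *Ifi27* are the only members with values below 0.

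The second comparison asks what the cKO genotype does in DP cells. Of 42 members tested, 0 were called by edgeR without a replicate block, where 0.145% of 11748 genes were, and DESeq2 also called 0. An unadjusted p under 0.05 was found for 4 members and for 1079 of all genes. The median log2 fold change was -0.08 over members and -0.00 over all genes, with 18 members above 0 and 24 below. The 95% interval lay within a 1.5-fold change in either direction for 12 of 42 members and for 6104 of all genes. *Ifi44* was not tested, for want of counts. Values of the genotypes did not overlap for 2 members, *Bst2* and *Gbp2*, and for 14.9% of all genes. With 3 samples against 3, the smallest p that an exact permutation test allows is 0.1.

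The members with the smallest p in DP cells are given with their values. *Trim30a* had 36.6, 29.0 and 24.8 TPM in control and 25.7, 16.7 and 14.6 TPM in cKO samples. Control and cKO values overlapped, and the cKO value was lower in 3 of 3 same-numbered pairs (-0.63 (SE 0.20), edgeR adjusted p = 0.346). *Bst2* had 63.9, 65.9 and 50.2 TPM in control and 87.2, 68.1 and 95.4 TPM in cKO samples, all cKO above all control (0.52 (SE 0.19), edgeR adjusted p = 0.405). *Gbp2* had 36.7, 35.5 and 29.3 TPM in control and 28.9, 23.7 and 23.6 TPM in cKO samples, all cKO below all control (-0.37 (SE 0.14), edgeR adjusted p = 0.437). None of these passed the test without a replicate block; with it *Trim30a* did (-0.65, edgeR adjusted p = 0.0350), though same-numbered DP samples did not all deviate together. Of 43 members, 12 were lower in cKO in 3 of 3 same-numbered pairs (27.9%, against 23.0% of all genes) and 4 were higher (9.3%, against 15.8%). *Slfn5* had 24.8, 16.4 and 14.4 TPM in control and 15.98, 11.5 and 11.0 TPM in cKO samples (-0.49 (SE 0.20), edgeR adjusted p = 0.481). *Rsad2*, with the largest positive difference, had 2.48, 3.11 and 2.44 TPM in control and 7.12, 2.94 and 3.10 TPM in cKO samples (0.73 (SE 0.35), edgeR adjusted p = 0.597). *Oasl2*, with the largest negative one, had 4.18, 1.78 and 1.94 TPM in control and 1.92, 1.04 and 1.42 TPM in cKO samples (-0.78 (SE 0.40), edgeR adjusted p = 0.622). The groups of these last 3 genes overlapped.

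Several marker lists had mostly lower levels in DP cKO than in DP control samples, with 0 genes called by edgeR. The maturation markers summed to 474, 395 and 390 TPM in DP control and 351, 349 and 308 TPM in DP cKO samples, with all cKO sums below all control sums. All 7 had a negative log2 fold change, with a median of -0.71, and 4 had an unadjusted p under 0.05. Of 12 macrophage and dendritic cell markers tested, 11 were lower in cKO, with a median of -1.17; 8 of the 12 had an unadjusted p under 0.05. The log2 fold change was also negative for 5 of 6 CD8 single-positive markers (median -0.68, 3 with an unadjusted p under 0.05), for 4 of 4 B cell markers tested (median -1.08, 2 under 0.05) and for 2 of 2 markers tested of NK, NKT and gamma-delta T cells (median -0.91, 1 under 0.05). General thymocyte, DP and plasmacytoid dendritic cell markers were split between both directions, each list with 1 unadjusted p under 0.05. Of 4 plasmacytoid markers tested, 2 were higher and 2 lower in cKO (median -0.05, lowest edgeR adjusted p = 0.131). *Cox6a2* had 5.38, 2.98 and 2 TPM in DP control and 11.4, 11.4 and 15.1 TPM in DP cKO samples. These values did not overlap, which held for 14.9% of all genes. The genotypes overlapped for *Siglech*, *Klk1* and *Ccdc88a*. *Ccdc88a* had 6.09, 4.27 and 3.01 TPM in DP control and 3.82, 4.29 and 1.44 TPM in DP cKO samples. The part of any marker list in the members' values was not tested. In the pathway lists edgeR called 0 genes; 2 of 13 genes of upstream sensing and 4 of 48 other interferon-stimulated genes had an unadjusted p under 0.05.

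The third comparison asks the same in CD8 cells, with other samples. Of 43 members, 0 were called by edgeR without a replicate block, where 0.0980% of 11227 genes were, and DESeq2 also called 0. An unadjusted p under 0.05 was found for 5 members and for 629 of all genes. The median log2 fold change was 0.00 over members and -0.01 over all genes. The 95% interval lay within a 1.5-fold change for 36 of 43 members and for 7773 of all genes. Only *Oas2* had genotype groups that did not overlap, which held for 1.38% of all genes. In the pathway lists edgeR called 0 genes, and 2 of 50 other interferon-stimulated genes had an unadjusted p under 0.05. The marker lists also held 0 called genes. Of 6 macrophage and dendritic cell markers tested, 4 were higher in cKO (median 0.30), and 3 had an unadjusted p under 0.05. So did 1 of 5 general thymocyte, 1 of 7 maturation and 1 of 6 NK, NKT and gamma-delta T cell markers. The part of any marker list in the members' values was not tested.

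*Oas2* had 135, 88.1, 84.1, 89.9 and 121 TPM in CD8 control and 82.3, 82.2, 63.2, 44.3 and 73.0 TPM in CD8 cKO samples. Every cKO value was below every control value, and lower in 5 of 5 same-numbered pairs (-0.62 (SE 0.17), edgeR adjusted p = 0.321). The exact permutation p was 0.00794, the smallest that 5 samples against 5 allow, for a gene picked from 43 by its p. With the replicate number as a block *Oas2* passed the test (-0.62, edgeR adjusted p = 0.0350, with a range of 0.035 to 0.734 over all alternatives). *Iigp1* had 8.70, 7.91, 12.4, 15.2 and 12.4 TPM in control and 16.7, 17.2, 22.6, 11.7 and 25.3 TPM in cKO samples (0.67 (SE 0.21), edgeR adjusted p = 0.474). *Ifi44* had 6.12, 1.59, 3.75, 4.16 and 6.86 TPM in control and 8.40, 7.61, 8.61, 5.16 and 9.55 TPM in cKO samples, the largest positive difference (0.75 (SE 0.31), edgeR adjusted p = 0.819). The groups of both genes overlapped. *Oas3*, the neighbour of *Oas2*, had 98.7, 95.1, 96.1, 92.3 and 122 TPM in control and 120.1, 111, 107, 134 and 140.2 TPM in cKO samples, higher in cKO in 5 of 5 pairs (0.25 (SE 0.10), edgeR adjusted p = 0.833). *Ifi27*, whose values are given above, differed by 0.35 (SE 0.14) (edgeR adjusted p = 0.754). In all, 1 member was lower in cKO in 5 of 5 pairs (2.89% of all genes) and 4 were higher (5.64%), *Oas3*, *Ifi44*, *Ifit2* and *Ifi47*. *Zbp1*, the most abundant sensor, had 49.9, 40.5 and 41.0 TPM in DP cKO and 320.3, 294, 347, 299 and 345 TPM in CD8 cKO samples, overlapping its controls.

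**Figure D4:**
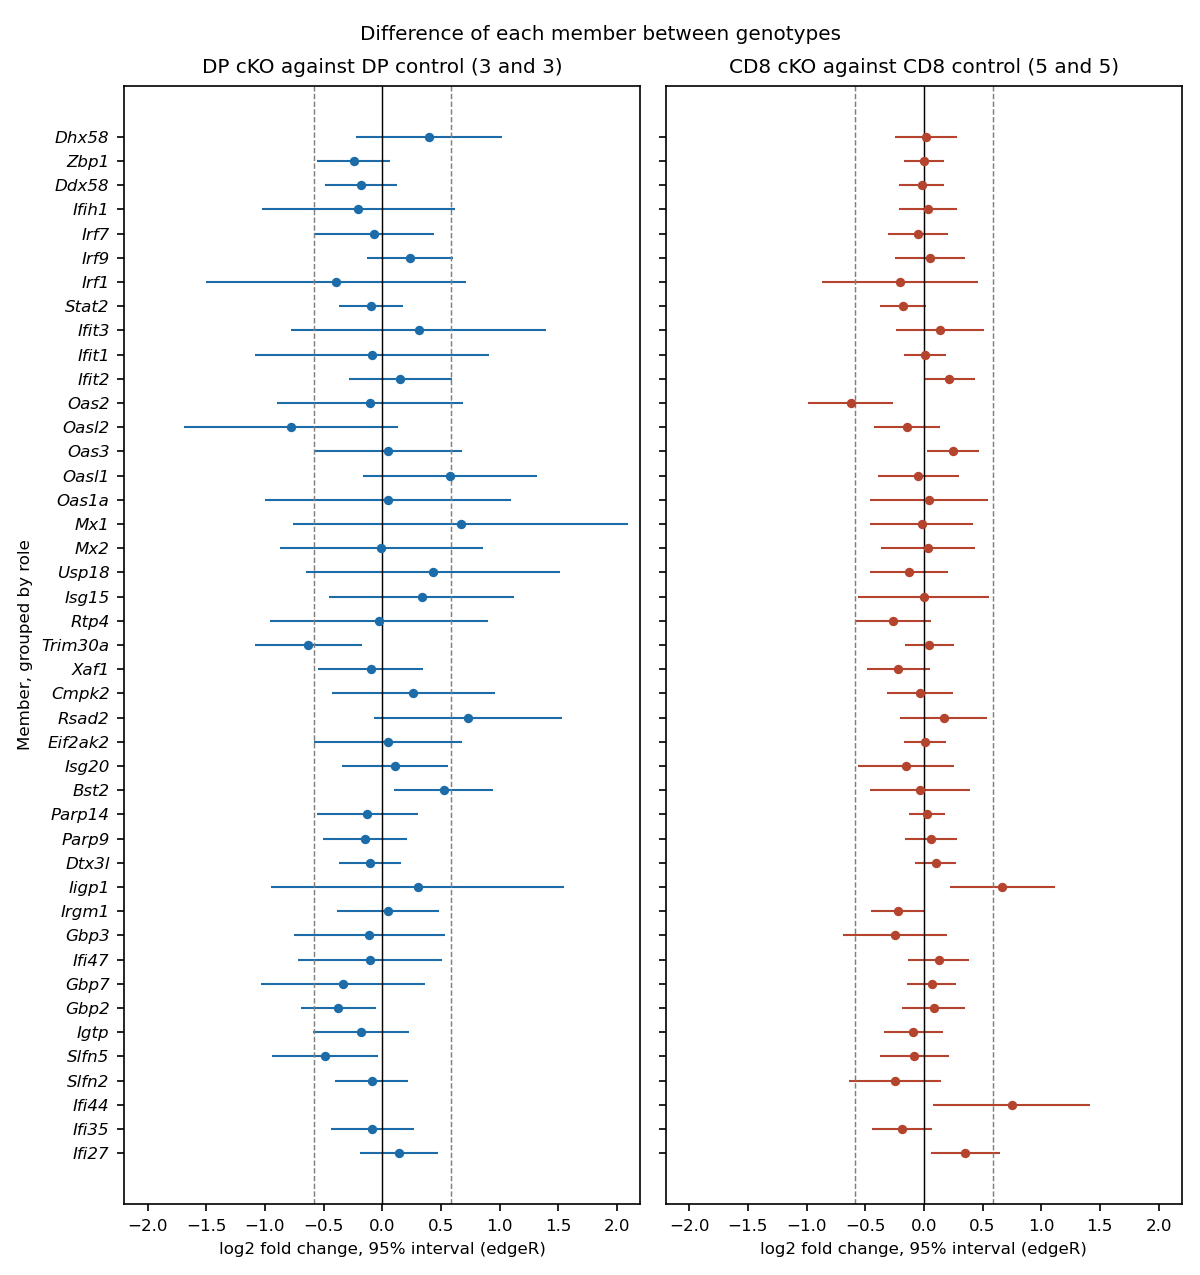
Log2 fold change of each member, cKO against control, in DP cells and in CD8 cells, with 95% intervals. Intervals are wider in DP cells for 40 of the 42 members tested in both. No member was called in either comparison in these fits, which have no replicate block.

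**Figure D5:**
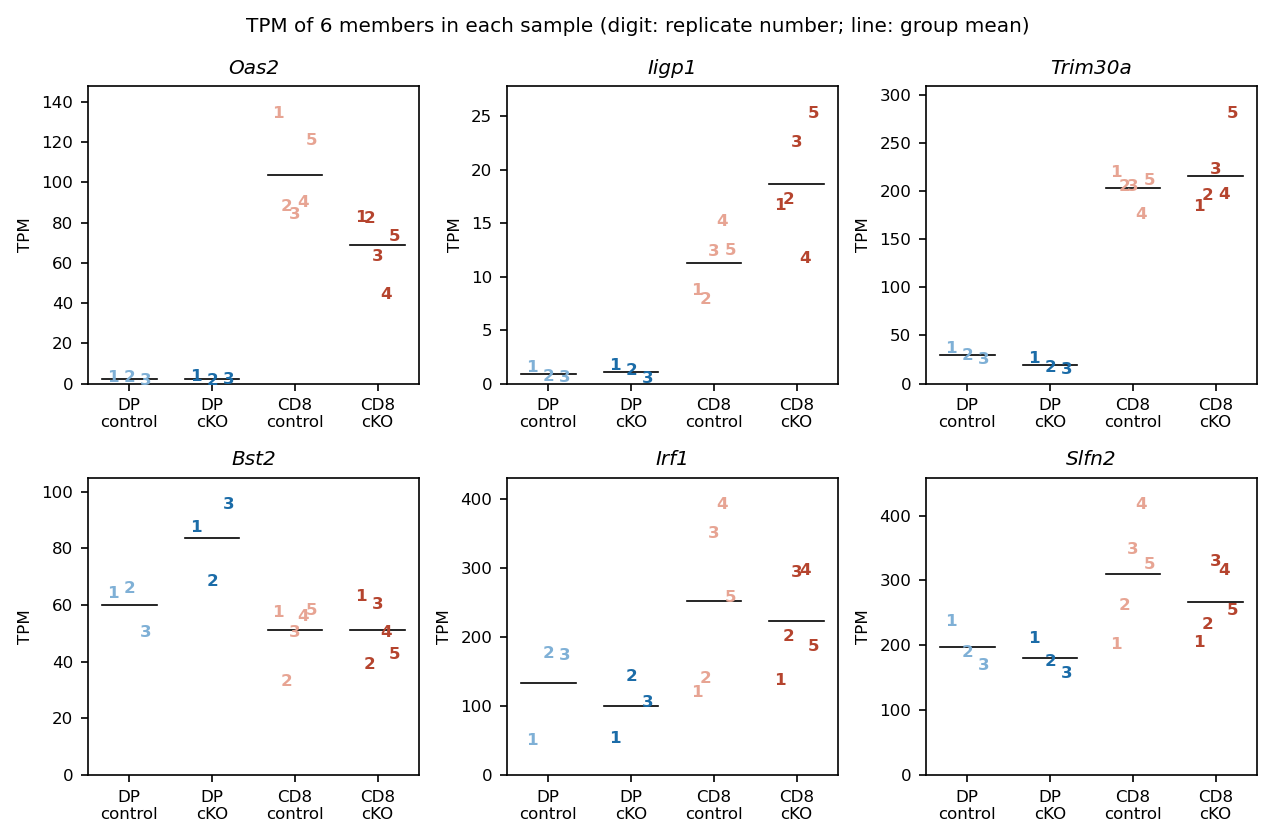
TPM of *Oas2*, *Iigp1*, *Trim30a*, *Bst2*, *Irf1* and *Slfn2* in each sample, with the genotypes of each cell type side by side. Digits are replicate numbers and lines group means; the genotypes do not overlap for *Oas2* in CD8 cells and for *Bst2* in DP cells.

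Whether the cKO difference itself differed between the cell types was tested over all 16 samples. Of 43 members, 0 passed in edgeR, where 0.107% of 12131 genes did, and DESeq2 passed 0; 2 members had an unadjusted p under 0.05, as did 639 of all genes. *Trim30a* had the largest positive difference, CD8 minus DP, of 0.68 (SE 0.20) (edgeR adjusted p = 0.599). Its CD8 cKO values were 184, 195, 222, 196 and 281 TPM, overlapping the CD8 control values. *Gbp2* differed by 0.45 (SE 0.20), with 72.2, 69.8, 85.4, 104 and 83.6 TPM in CD8 cKO samples, and *Bst2* by -0.56 (SE 0.30), with 62.9, 38.9, 60.2, 50.5 and 42.6 TPM. *Oasl1* differed by -0.64 (SE 0.33), *Oasl2* by 0.61 (SE 0.34) and *Mx1*, the largest negative difference, by -0.67 (SE 0.57). The *Mx1* value was -1.29 without DP control 2, -1.04 without DP cKO 3, and -0.25 without DP control 3 or without DP cKO 1. None of these passed.

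Outside the members, 1 gene of the pathway lists passed this test, *Samhd1*, for an enzyme that degrades deoxynucleotides. It had 19.98, 18.6 and 14.1 TPM in DP control, 10.1, 9.87 and 7.51 TPM in DP cKO, 278, 206, 237, 217 and 232 TPM in CD8 control and 248, 227, 280.2, 263 and 282 TPM in CD8 cKO samples. All DP cKO values were below all DP control values, and the CD8 genotypes overlapped. The difference was 1.02 (SE 0.18) with edgeR adjusted p = 0.0499, at the threshold. It failed on leaving out any 1 of 12 of the 16 libraries, with differences of 0.94 to 1.14 over all leave-outs and adjusted p in edgeR of up to 0.184. It passed with DESeq2 (1.04, adjusted p = 8.68e-05) and with the replicate block in edgeR (1.02, adjusted p = 0.00377). Several marker lists leaned the same way in this test, with 0 genes of any marker list passing in edgeR. General thymocyte (2 of 5 positive) and plasmacytoid dendritic cell markers (2 of 4) were split between both directions. So were DP (5 of 8) and CD8 single-positive markers (4 of 6). Positive differences were seen for 11 of 12 macrophage and dendritic cell markers (median 1.74, 5 with an unadjusted p under 0.05), 7 of 7 maturation markers (0.83, 3 under 0.05), 6 of 6 markers of NK, NKT and gamma-delta T cells (1.503, 3 under 0.05) and 6 of 6 B cell markers (0.97, 0 under 0.05). The part of these lists in the *Samhd1* values was not tested.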

How the data were processed

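The values used are fragment counts per gene that the authors deposited, 1 table for DP and 1 for CD8 cells, with exonic length in bases per the file headers of the DP table. Per the labels, the authors trimmed reads with fastp 0.13.1, aligned them to mm10 with HISAT2 2.1.0 and counted with featureCounts 1.6.1. Counts were fitted across all genes with edgeR 4.0.16 in R (TMM scaling, filterByExpr, quasi-likelihood F test, Benjamini-Hochberg adjustment), and again with DESeq2 1.42.0. The fits were tested on simulated data. A call needs an adjusted p under 0.05, a fold of 1.5 and a mean of 1 TPM; the difference between cell types needs the adjusted p alone. TPM was computed from counts and the exonic lengths of the DP table, used for both tables on the assumption of the same annotation. Members, role groups, pathway and marker lists were chosen with earlier results of these data known. Named members are those called or, under 3 calls, the 5 with the smallest p, the largest change each way, the 5 most abundant and the most abundant of each role; pathway genes are named where called, except 1 that is not reported here. Same-numbered CD8 samples deviated together (correlations over genes of 0.389, 0.347, 0.357, 0.350 and 0.1001, all over 0.1), a pairing that comes from the data and not the labels; some differently numbered samples correlated too (control 4 with cKO 3, 0.460; 1 with 2, 0.317 and 0.324). Alternatives were RLE scaling, DESeq2, no filter, the replicate block, a joint fit and leaving out each library.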

Additional observations from a re-analysis of the deposited data

Results flagged for a closer look

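In 5 of 86 sets of 5 CD8 values, 1 for each member and genotype, a sample lay far from the others; chance gives about 1 in 20. *Ifit2* had 32.9 TPM in CD8 control 5, with 25.6 to 27.0 elsewhere in its group. *Oas3* had 122 TPM in the same sample, against 92.3 to 98.7. *Stat2* had 78.8 TPM in CD8 control 3, against 84.7 to 85.3. *Dhx58* had 76.0 TPM in CD8 cKO 5, against 53.3 to 56.6. *Gbp3* had 17.4 TPM in CD8 cKO 3, against 10.5 to 12.4.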

How the results depend on the processing

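The count of members higher in CD8 than in DP control cells lay between 35 and 39 over all alternatives, and 0 were lower in each. In DP cells same-numbered samples had correlations of 0.708, 0.0802 and 0.350, and not every sample correlated best with its own number, so the numbers were not taken as pairs; with the replicate block 1 member was called lower, *Trim30a* (-0.65, edgeR adjusted p = 0.0350, range over alternatives 0.035 to 0.782). In CD8 cells the block also called 1 lower, *Oas2*; the cause was not tested. In the stage comparison the block used only the 3 shared numbers and lost *Isg15* (0.71) and *Slfn2* (0.35), as well as *Cxcl10*, *Parp12*, *Irf3*, *Ccl5* and *Socs3*. It changed no other call of a named gene. Leaving out 1 library called 0 members by genotype in either cell type; the median change then ranged from -0.17 to 0.08 in DP cells, -0.04 to 0.04 in CD8 cells and 2.22 to 2.51 between stages. On CPM in place of TPM, DP genotypes did not overlap for 0 members above and 2 below, *Trim30a* and *Gbp2*, since the scales divide by different totals. Counts over all genes depended on the fit: 17 in DP cells became 160 with DESeq2, 74 with no filter, 131 with the block and 42 in the joint fit; 11 in CD8 cells became 46 with DESeq2 and 31 with the block; and 13 for the difference became 36 and 33. Leaving out 1 library gave 0 to 8 in DP cells, 4 to 20 in CD8 cells and 0 to 11 for the difference. RLE scaling changed no call of a member. In DP cells, with 3 samples a group, only 12 of 42 members have intervals within a 1.5-fold change.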

Other observations

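DP samples numbered 1 differed from the others in some immediate-early genes, which were chosen after their values were seen. *Fos* had 23.3, 152 and 268 TPM in DP control and 24.01, 89.9 and 130.2 TPM in DP cKO samples. *Jun* had 39.6, 395 and 562 TPM in DP control and 43.3, 362 and 412 TPM in DP cKO samples. In both genes, as in *Irf1*, sample 1 of each genotype was the lowest. *Egr1* went the other way, with 213, 159 and 151 TPM in DP control and 147, 84.1 and 106 TPM in DP cKO samples, where sample 1 was the highest.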
